A study of Mus musculus with 2 samples.

Results

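The genes examined were 9 of the 31253 in the count tables: Camk2b, Slc15a2, Cdk5rap1, Ube2v1, Mid1, D130009I18Rik, Gm42031, Gm4316 and mt-Atp8. They were taken by symbol, and they had been chosen because their level differed between the WT and the Vsig4 KO library in the same direction in most immune cell types. The values that chose them are the ones described here, so each difference between the libraries is given as a description, with no test. The question was in which cells each gene was counted, how large its difference was in each cell type, and whether that difference scaled with the gene's level or was even across types.

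The study sorted live CD45+ single cells from livers of WT mice and of mice lacking Vsig4, a complement receptor of tissue macrophages, and sequenced their RNA with the droplet method of 10x Genomics. In both genotypes the liver bore B16F10 melanoma metastases. Each genotype gave 1 library, and neither the number of mice pooled in it nor the strain background of either genotype is given in the sources used here. Genotype, strain background and library therefore cannot be told apart, and no p-value is given.

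Of the 9 genes, 6 code for proteins with known roles. Camk2b is a subunit of the calcium/calmodulin-dependent protein kinase II, best known from neurons, and Slc15a2 is a proton-coupled carrier that imports short peptides. Ube2v1 is a catalytically inactive relative of ubiquitin-conjugating enzymes that works with Ube2n to build ubiquitin chains used in immune signalling. Mid1 is a microtubule-bound ubiquitin ligase that acts on the phosphatase PP2A, and in laboratory mice its gene spans the boundary of the region that the X and Y chromosomes share. Cdk5rap1 modifies mitochondrial transfer RNAs, and mt-Atp8, encoded in the mitochondrial genome, is a small subunit of ATP synthase. D130009I18Rik, Gm42031 and Gm4316 are annotated as long intergenic non-coding RNAs, with no role named here.

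After filtering, 6491 WT and 5479 Vsig4 KO cells remained, with 26281210 and 23358808 UMIs (unique molecular identifiers, each marking 1 captured RNA molecule) and a median of 3034 and 3260 UMIs per cell. Levels are in CPM, the UMIs of a gene per 1000000 UMIs of all genes in the same cells, and the ratio is the Vsig4 KO level over the WT level with its exact 95% interval. The intervals cover counting error only, and differences between mice, sorts or libraries lie outside them. Cells were assigned to types by raw UMIs of marker genes, which placed 66.8% of WT and 71.8% of Vsig4 KO cells, and 11 types held at least 50 cells in each library. Type shares differed: in the WT library 27.2% of cells were B cells and 3.45% classical monocytes, and in the Vsig4 KO library 34.5% and 1.81%. Vsig4 itself had 43 UMIs in 19 WT cells and 3 UMIs in 3 Vsig4 KO cells, a ratio of 0.0785 (0.0156 to 0.245). The libraries shared 54 cell barcodes. Genes listed for cells outside the sort differed between them too: all 5 erythroid genes were lower past 1.5-fold in the Vsig4 KO library (191 against 4.67 CPM summed). All 7 measured hepatocyte genes were lower, 6 of them past 1.5-fold (91.3 against 61.8 CPM summed over the list, of which Trf, at 67.4 and 50.2 CPM, was most). Of 6 measured melanoma genes 4 were higher past 1.5-fold, Dct had a ratio of 1.24 (1.08 to 1.44) and Mitf, at 39.0 and 24.7 CPM, was lower past 1.5-fold (70.4 against 70.5 CPM summed). Whether RNA of these lists came from cells outside the sort, and its part in the values below, was not tested.

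Over all cells, 8 of the 9 genes were higher in the Vsig4 KO library by more than 1.5-fold and 1, Mid1, was lower by more than 1.5-fold. Among all 13007 genes with at least 50 UMIs, 5% were higher and 5.38% lower past that fold. The genes were chosen from this contrast, so nothing is read from those shares. A gene was called measured in a type when both libraries together held at least 20 of its UMIs there, which left 86 of 99 gene and type pairs. Some pairs passed mainly through the library where the gene was higher, as Cdk5rap1 did in Zbtb16+ T cells with 4 and 62 UMIs. The ratio lay on the gene's own side of 1 in 85 of the 86 pairs, and past 1.5-fold in 83. The choice of genes and this minimum both favour that side, so nothing is read from these counts. The share of all tested genes past that fold was also taken within each type. The share higher past 1.5-fold was 6.06% in B cells, 7.25% in CD8 T cells, 7.88% in conventional CD4 T cells, 13.5% in Foxp3+ T cells, 9.69% in Zbtb16+ T cells and 7.67% in NK cells. It was 8.61% in classical monocytes, 8.32% in macrophages, 13.5% in cDC1, 9.58% in cDC2 and 7.3% in pDC. The share lower was 4.41% in B cells, 5.92% in CD8 T cells, 10.2% in conventional CD4 T cells, 15.5% in Foxp3+ T cells, 11.2% in Zbtb16+ T cells and 8.17% in NK cells. It was 11.2% in classical monocytes, 12.2% in macrophages, 7.63% in cDC1, 11.8% in cDC2 and 8.6% in pDC. Nothing is read from these shares either. The 3 pairs inside 1.5-fold were Ube2v1 in macrophages and in cDC2, and Gm4316 in CD8 T cells. The word even holds less well: the interval of a type held the ratio pooled over the other types in 64 pairs, and in the other 22 it did not. Few UMIs give a wide interval that holds that ratio readily, so a held ratio does not show an even shift.

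**Figure D1:**
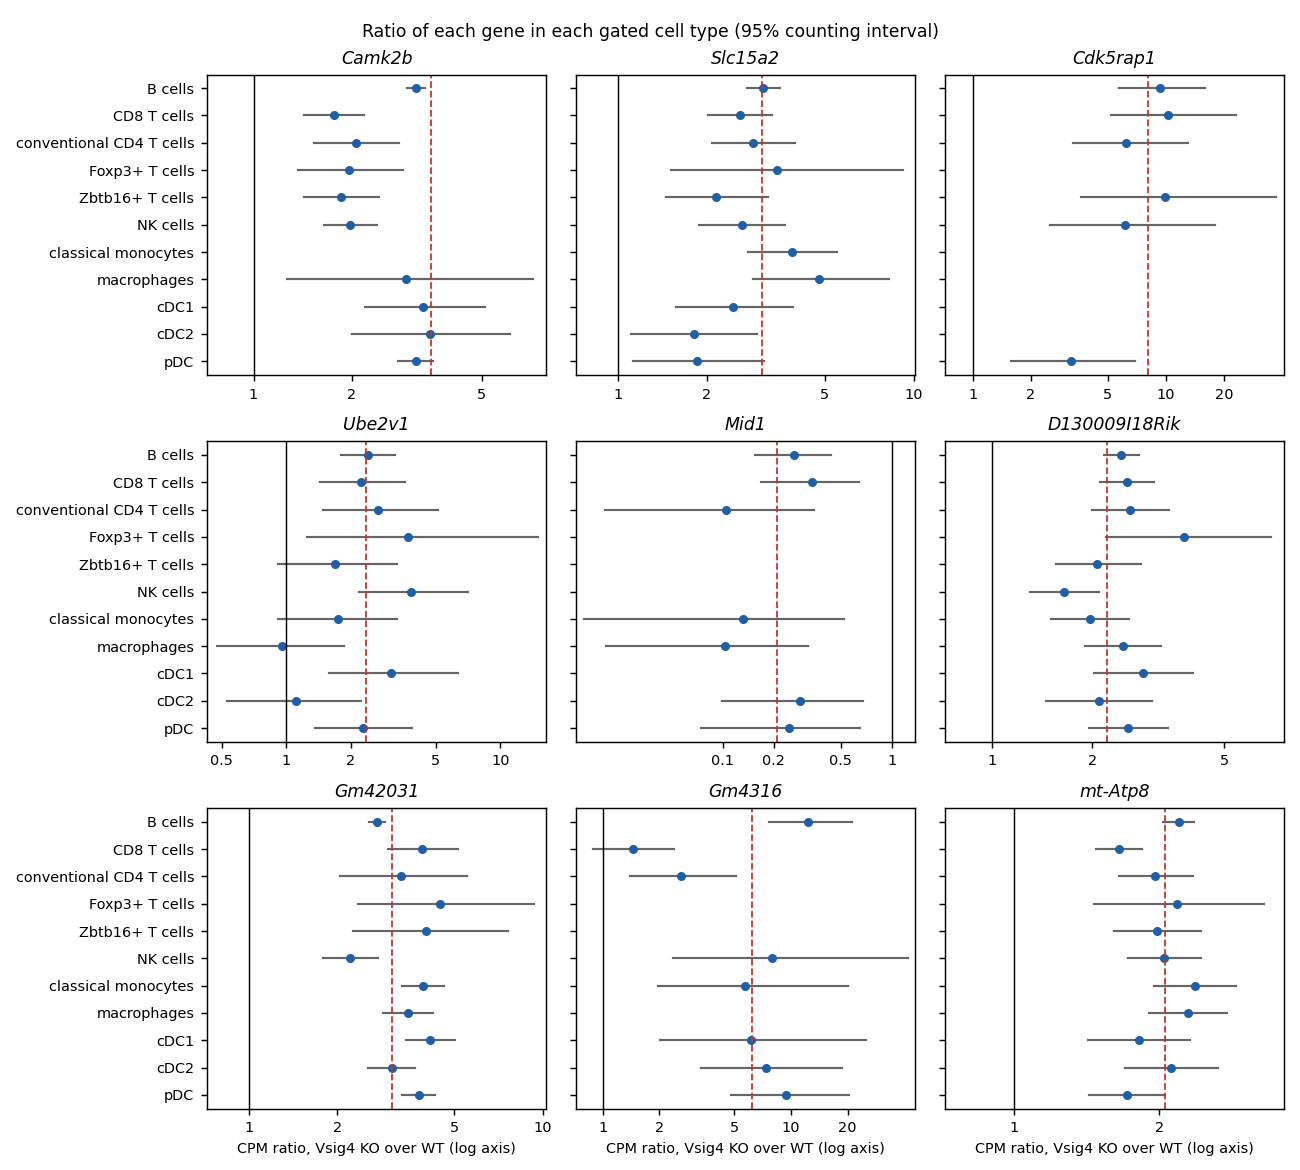
Ratio of the Vsig4 KO to the WT level (log axis) of each gene in each cell type where it was measured, as points with 95% counting intervals; the black line marks 1 and the dashed red line the ratio over all cells. All points of 7 genes lie past 1.5-fold on one side, and Ube2v1 in macrophages is the 1 point on the other side of 1.

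Camk2b had 2907 UMIs in the WT library and 9060 in the Vsig4 KO library, or 111 and 388 CPM, a ratio of 3.51 (3.36 to 3.66). B cells and plasmacytoid dendritic cells (pDC), which sense viral nucleic acids, held its highest levels among the 11 types. In B cells it stood at 247 CPM in WT and 776 CPM in Vsig4 KO, a ratio of 3.14 (2.95 to 3.36). In pDC the levels were 278 and 872 CPM, a ratio of 3.14 (2.77 to 3.55). The lymphocytes other than B cells showed a smaller ratio. CD8 T cells went from 62.9 to 111 CPM (1.76, 1.43 to 2.18), and NK cells from 142 to 281 CPM (1.98, 1.64 to 2.39). Conventional CD4 T cells had 63.95 and 131 CPM (2.06, 1.53 to 2.78) and Zbtb16+ T cells, a group that includes NKT cells, 118 and 218 CPM (1.85, 1.42 to 2.42). These 4 intervals all ended below the ratio of the other types, between 2.86 and 2.91, and that of B cells began above its own comparison value of 2.41.

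The myeloid types carried little Camk2b. In macrophages it was 7.72 CPM in WT and 22.6 CPM in Vsig4 KO (2.93, 1.27 to 7.17), from 10 and 17 UMIs. In cDC2, dendritic cells that present antigen mainly to CD4 T cells, it was 20.3 and 70.4 CPM (3.46, 2.01 to 6.12), and in cDC1, which cross-present to CD8 T cells, 35.5 and 118 CPM (3.32, 2.19 to 5.12). Classical monocytes had 10 and 7 UMIs and were not measured. The share of B cells with at least 1 Camk2b UMI was 33.6% in WT and 67.2% in Vsig4 KO, at a median depth of 2399 and 2778 UMIs, and 17.9% and 41.9% after every cell was thinned to 1000 UMIs. In classical monocytes, far deeper at 6620.5 and 8156 UMIs, the shares were 4.46% and 7.07%, and 1.35% and 1.01% thinned, so the B cell shares stood well above those of the type with the fewest Camk2b UMIs. Each Camk2b-positive cell carried on average 2.15 UMIs in WT and 3.58 in Vsig4 KO.

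Across the 10 types where Camk2b was measured, its levels spanned 36.0-fold in WT while its ratios spanned 1.964-fold. The log2 level in Vsig4 KO followed the log2 level in WT with a Pearson r of 0.97 and a slope of 0.93 over those 10 types, whose levels come from the same 2 libraries. The difference in CPM was larger where the WT level was higher. B cells were the source of 38.9% of Camk2b UMIs in WT and 48.7% in Vsig4 KO. One Vsig4 KO cell held 142 of them, and the 10 cells with the most held 10.1%. With the mixture of types held equal (a Mantel-Haenszel ratio over the 11 types), the ratio was 2.84 (2.70 to 2.98), below the 3.51 over all cells.

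**Figure D2:**
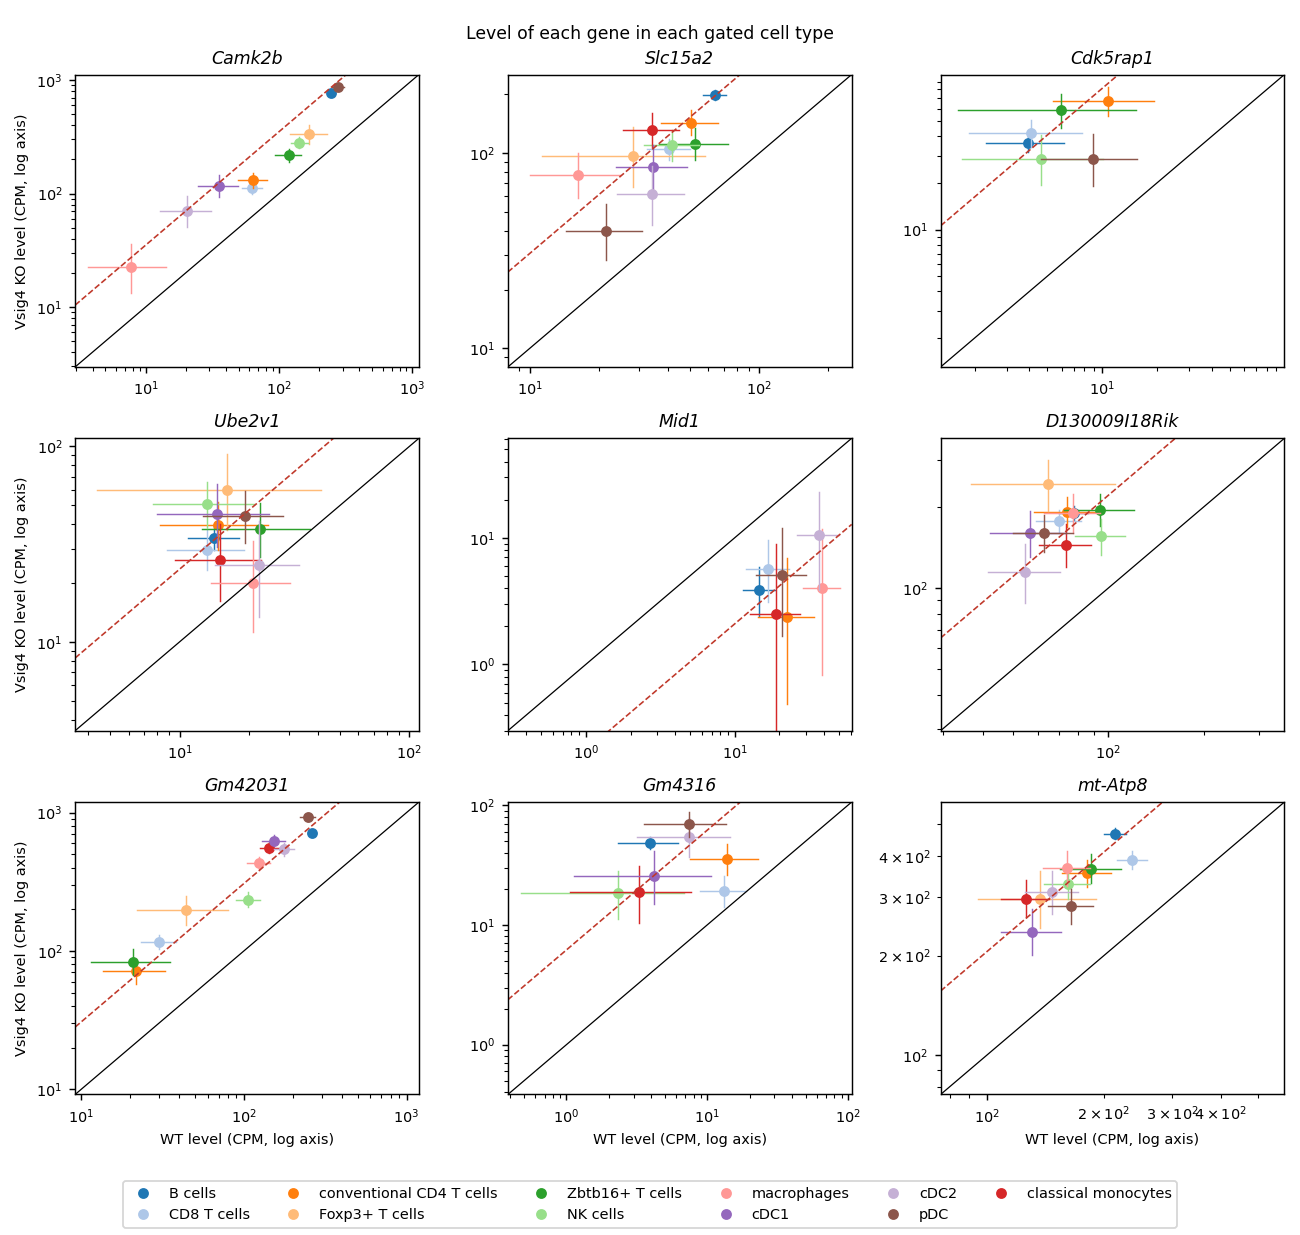
Level of each gene in Vsig4 KO (vertical, CPM, log axis) against WT (horizontal, CPM, log axis) in each measured cell type, with 95% counting intervals; the black line marks equal levels and the dashed red line the ratio over all cells. Camk2b and Gm42031 run parallel to the line of equal levels over a wide range of levels. Ube2v1, whose WT levels span 1.70-fold, does not follow it, and Cdk5rap1, Mid1, D130009I18Rik and Gm4316 follow it loosely.

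Of 13 genes measured in the calcium/calmodulin kinase list, Camk2b was the 1 past 1.5-fold, beside 5% higher and 5.38% lower among all tested genes. Camk2b was chosen for its shift, so nothing is read from this count, nor from those of the lists below that hold a chosen gene. The median log2 difference of the list was -0.06 beside 0.01 for all genes tested. The paralogs that make the other subunits of the same kinase had ratios of 0.953 (0.910 to 0.997) for Camk2d and 0.849 (0.769 to 0.938) for Camk2g. Other kinases of the list were higher by less than 1.5-fold, Camk1d with 70459 and 83865 UMIs (1.34, 1.33 to 1.35) and Camk4 with 2428 and 2883 (1.34, 1.27 to 1.41). Camk2a, the subunit typical of forebrain neurons, had only 28 and 22 UMIs.

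Ube2v1 had 408 and 854 UMIs, or 15.5 CPM in WT and 36.6 CPM in Vsig4 KO, a ratio of 2.36 (2.09 to 2.66). Its largest ratios were in NK cells and Foxp3+ T cells and its smallest in macrophages and cDC2. In NK cells it was 13.2 and 50.7 CPM (3.84, 2.20 to 7.06), and in Foxp3+ T cells, the regulatory T cells, 16.1 and 60.04 CPM (3.73, 1.26 to 14.9). In B cells it was 14.2 and 34.1 CPM (2.41, 1.81 to 3.24). Macrophages had 20.8 and 19.98 CPM (0.959, 0.474 to 1.87) from 27 and 15 UMIs, and cDC2 had 22.2 and 24.6 CPM (1.11, 0.531 to 2.24) from 24 and 14 UMIs. The intervals of macrophages and cDC2 ended below the ratio of the other types, 2.35 and 2.32, and that of NK cells began above its comparison value of 2.13. In cDC1 the ratio was 3.10 (1.59 to 6.32) and in Zbtb16+ T cells 1.69 (0.914 to 3.30). The ratios therefore did not separate lymphocytes from myeloid cells.

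Over 11 types the WT level of Ube2v1 lay within a narrow span, from 13.2 CPM in NK cells to 22.4 CPM in Zbtb16+ T cells, and the Vsig4 KO level ran from 19.98 CPM in macrophages to 60.04 CPM in Foxp3+ T cells. The log2 levels of the libraries had a Pearson r of -0.36 over these types. That r was low for 4 other genes as well: 0.38 for Cdk5rap1 over 6 types and 0.39 for Mid1 over 7. For D130009I18Rik it was 0.35 over 11 types and for Gm4316 0.29 over 8, whereas mt-Atp8 had 0.82 over 11. WT levels spanned 2.76-fold for Cdk5rap1, 2.64-fold for Mid1 and 1.73-fold for D130009I18Rik, and Gm4316 had few WT UMIs. Counting error can lower r in such cases, so a low r does not show that a shift failed to follow the level. Of 12 genes measured for the building of such ubiquitin chains, Ube2v1 was the 1 past 1.5-fold, beside 5% higher and 5.38% lower among all tested genes. Its partner Ube2n had a ratio of 1.02 (0.961 to 1.07) and its paralog Ube2v2 one of 1.04 (0.948 to 1.15). The highest ratio among the others was 1.18 (1.01 to 1.38), for Tab3, an adaptor that binds such chains. Ube2v1 shares exons with Gm20431, a readthrough gene on the same strand that takes in its sequence. Of its 60-base stretches of transcript, 62.4% also occur in transcripts of other genes, 56.1% in Gm20431, against a median of 0.423% over 12992 genes. Gm20431 itself had 29 UMIs in each library. How the authors' counting divided reads between these genes is not given in the sources used here, so the level of Ube2v1 is uncertain.

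Mid1 was the 1 gene of the 9 that was lower in the Vsig4 KO library. It had 522 UMIs in WT and 97 in Vsig4 KO, 19.9 and 4.15 CPM, a ratio of 0.209 (0.167 to 0.260), which is 4.78-fold lower. Macrophages and cDC2 held the highest WT levels, and the Vsig4 KO level was low in every measured type. In macrophages it was 38.6 CPM in WT and 4.00 CPM in Vsig4 KO (0.104, 0.0207 to 0.321), from 50 and 3 UMIs. In cDC2 it was 37.0 and 10.6 CPM (0.286, 0.0990 to 0.678), and in pDC 20.8 and 5.13 CPM (0.246, 0.0743 to 0.646). Lymphocytes showed the same direction: B cells had 14.6 and 3.87 CPM (0.265, 0.156 to 0.435), CD8 T cells 16.9 and 5.68 CPM (0.337, 0.168 to 0.638), and conventional CD4 T cells 22.6 and 2.38 CPM (0.105, 0.0202 to 0.347). Classical monocytes had 29 and 2 UMIs (0.131, 0.0152 to 0.519).

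In all 7 measured types the interval of Mid1 held the ratio of the other types, with ratios from 0.104 to 0.337. Several of these intervals are wide, as in classical monocytes with 29 and 2 UMIs, so this does not show that its shift was even. The 4 types with too few UMIs were also lower in Vsig4 KO: 5 and 0 UMIs in Foxp3+ T cells, 4 and 2 in Zbtb16+ T cells, 15 and 2 in NK cells, and 10 and 3 in cDC1. Of the UMIs in the Vsig4 KO library, 22.7% came from B cells, and 85 cells had any. Of 6 genes measured in its list of relatives and partners, Mid1 was the 1 past 1.5-fold, beside 5% higher and 5.38% lower among all tested genes. The PP2A catalytic subunit genes Ppp2ca and Ppp2cb had ratios of 1.101 (1.05 to 1.15) and 0.909 (0.844 to 0.979), and Igbp1, which links Mid1 to PP2A, 0.967 (0.887 to 1.05). The paralog Mid2 had 14 and 5 UMIs, under the minimum, and was lower too at a ratio of 0.402. Of the 60-base stretches of Mid1, 27.6% occur in other genes, 14.4% in the pseudogene Mid1-ps1.

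Slc15a2 had 1075 and 2926 UMIs, 40.9 CPM in WT and 125 CPM in Vsig4 KO, a ratio of 3.06 (2.85 to 3.29). All 11 types were measured and all lay past 1.5-fold. B cells had the highest level, 64.1 and 199 CPM (3.10, 2.72 to 3.54). Conventional CD4 T cells had 50.2 and 143 CPM (2.86, 2.08 to 3.98) and NK cells 41.9 and 109.6 CPM (2.62, 1.88 to 3.68). The largest ratio was in macrophages, the cells in which peptide import by this carrier feeds sensors of bacterial cell wall: 16.2 and 77.3 CPM (4.77, 2.85 to 8.27), from 21 and 58 UMIs. Classical monocytes had 34.0 and 132 CPM (3.88, 2.76 to 5.51). The smallest ratios were in cDC2, 34.2 and 61.6 CPM (1.80, 1.102 to 2.94), and pDC, 21.5 and 39.99 CPM (1.86, 1.12 to 3.11).

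The intervals of B cells and macrophages began above the ratio of the other types, 2.70 and 2.84, and the other 9 held it. Levels of Slc15a2 in the libraries followed each other over the 11 types with a Pearson r of 0.74 on the log2 scale. Its relatives that export peptides and histidine from endolysosomes were not past 1.5-fold: Slc15a3 had a ratio of 0.793 (0.728 to 0.864) and Slc15a4 one of 0.946 (0.871 to 1.03). Slc15a1 and Slc15a5 had 2 and 1 UMIs in all.

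Before the start sites of 2 of the genes higher in nearly every type, the sequence is shown to compare them. Both had a ratio above 3, few 60-base stretches of transcript in common with other genes (0.0104% for Camk2b and 0.399% for Slc15a2) and no annotated exon in the 250 bases before the start. Cdk5rap1 is not shown because annotated exons lie there. The stretches are chr11:6065749-6065998 for Camk2b and chr16:36784963-36785212 for Slc15a2, both on the minus strand, from RefSeq on GRCm38.p6, 5′ to 3′. That of Camk2b lies inside the span of a longer annotated transcript. Capitals mark the GC box GGGCGG or its reverse complement CCGCCC.
Camk2b: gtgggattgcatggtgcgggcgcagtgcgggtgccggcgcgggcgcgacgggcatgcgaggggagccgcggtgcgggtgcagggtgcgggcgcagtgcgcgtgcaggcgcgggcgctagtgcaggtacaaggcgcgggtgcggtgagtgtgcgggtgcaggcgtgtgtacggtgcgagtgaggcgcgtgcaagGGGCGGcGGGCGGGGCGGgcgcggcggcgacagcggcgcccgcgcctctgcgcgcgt
Slc15a2: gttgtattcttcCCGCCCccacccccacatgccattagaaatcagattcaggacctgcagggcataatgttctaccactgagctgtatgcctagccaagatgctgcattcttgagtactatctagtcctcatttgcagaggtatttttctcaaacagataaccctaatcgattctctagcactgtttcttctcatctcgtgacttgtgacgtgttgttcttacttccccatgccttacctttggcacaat
Camk2b holds 3 GC boxes, 2 of which overlap, and Slc15a2 holds 1. The motif was found on either strand in the same 250 bases before the start for 32.7% of 32851 entries of the table, called windows here. The windows of 8 of the 9 genes were in the table, 10 windows in all. Of the motifs searched on both strands, none was in all of them. The TATA box (TATAAA) was in the window of Gm42031, and the CCAAT box in that of Gm4316 and in 1 of the 3 of Mid1. The GC box was in the windows of Camk2b, Slc15a2, Cdk5rap1 and Ube2v1, and an ETS motif (CCGGAA) in that of Ube2v1. The cyclic AMP response element (TGACGTCA) was in none of them and in 1.55% of all windows, against 12.4% for the TATA box, 33.8% for the CCAAT box and 12.0% for the ETS motif. The G and C content of the windows ran from 35.6% for D130009I18Rik to 78.4% for Camk2b.

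Cdk5rap1 had the largest ratio of the 9 over all cells at full depth; with each cell thinned to 1000 UMIs it was 6.26, below the 7.95 of Gm4316. It had 112 UMIs in WT and 808 in Vsig4 KO, or 4.26 and 34.6 CPM, a ratio of 8.12 (6.65 to 9.98). The WT level was low in every type, at most 10.8 CPM among the measured types, and the Vsig4 KO level was higher in all. B cells had 3.92 and 36.4 CPM (9.28, 5.73 to 15.97), CD8 T cells 4.10 and 41.8 CPM (10.2, 5.17 to 22.9), and conventional CD4 T cells 10.8 and 67.3 CPM (6.22, 3.31 to 12.9). Zbtb16+ T cells had 4 and 62 UMIs (9.83, 3.65 to 37.2) and NK cells 6 and 31 (6.14, 2.52 to 17.998). In pDC the ratio was smaller: 8.92 and 28.7 CPM (3.22, 1.59 to 6.95), below the 7.92 of the other types.

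The 5 types with fewer than 20 Cdk5rap1 UMIs were also higher in Vsig4 KO: 1 and 14 UMIs in Foxp3+ T cells, 3 and 11 in classical monocytes, 5 and 6 in macrophages, 3 and 8 in cDC1, and 2 and 11 in cDC2. Among 8 genes of its list Cdk5rap1 was the 1 past 1.5-fold, beside 5% higher and 5.38% lower among all tested genes. Cdk5rap2 and Cdk5rap3, which share its name but not its enzyme fold, had ratios of 0.982 (0.874 to 1.102) and 1.09 (0.980 to 1.21), and Cdkal1, the methylthiotransferase for cytosolic transfer RNA, 0.950 (0.882 to 1.02).

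mt-Atp8 is shown whole because its last bases also belong to the next gene. It lies at chrM:7766-7969 on the plus strand (GRCm38, GENCODE) and has 204 bases. The 43 bases in capitals, chrM:7927-7969, are also the first bases of mt-Atp6, which codes for the proton channel subunit of the same enzyme. A read from those bases alone fits either gene.
mt-Atp8: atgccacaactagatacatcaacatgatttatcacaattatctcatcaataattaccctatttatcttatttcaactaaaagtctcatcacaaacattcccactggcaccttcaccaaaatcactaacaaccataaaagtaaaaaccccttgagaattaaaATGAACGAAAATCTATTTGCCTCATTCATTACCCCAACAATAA

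mt-Atp8 had 4760 and 8712 UMIs, 181 CPM in WT and 373 CPM in Vsig4 KO, a ratio of 2.06 (1.99 to 2.13). Its ratios had the smallest spread of the 9 genes, 1.44-fold between the highest and the lowest of the 11 types. The highest was in classical monocytes, 126 and 298 CPM (2.37, 1.95 to 2.88), and the lowest in CD8 T cells, 237 and 390.2 CPM (1.65, 1.48 to 1.84). In B cells it was 214 and 469 CPM (2.19, 2.04 to 2.36), in NK cells 161 and 329.7 CPM (2.04, 1.72 to 2.44), and in macrophages 160.5 and 368 CPM (2.29, 1.91 to 2.76). The interval of CD8 T cells ended below the ratio of the other types, 2.11, that of B cells began above its value of 1.92, and the other 9 types held theirs.

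The overlapping neighbour was lower. mt-Atp6 had 50864 and 31860 UMIs, 1935 and 1364 CPM, a ratio of 0.705 (0.695 to 0.715), and was lower in all 11 types, from 0.595 in pDC to 0.759 in classical monocytes. Summed, the overlapping pair had a ratio of 0.821 (0.810 to 0.831), and mt-Atp8 held 8.56% of its UMIs in WT and 21.5% in Vsig4 KO. Of the 13 protein genes of the mitochondrial genome, mt-Atp8 was the 1 past 1.5-fold, beside 5% higher and 5.38% lower among all tested genes. The other mitochondrial genes ran from 0.705 for mt-Atp6 to 1.21 (1.18 to 1.24) for mt-Nd4l, which encodes a complex I subunit. All 18 nuclear genes of ATP synthase lay between 0.727 for Atpif1, the inhibitor of the enzyme, and 1.11 for Atp5b, a catalytic subunit. The median share of mitochondrial UMIs per cell was 1.35% in WT and 1.13% in Vsig4 KO.

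**Figure D3:**
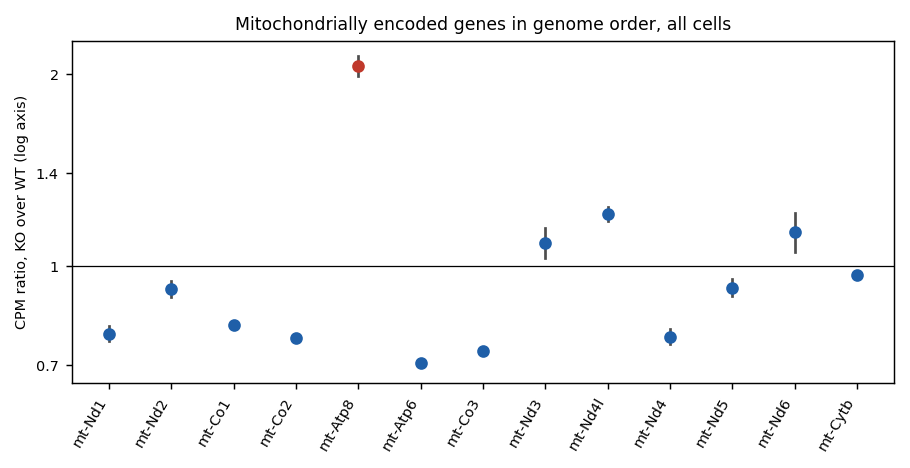
Ratio of the Vsig4 KO to the WT level over all cells (log axis) for the 13 protein genes of the mitochondrial genome in genome order, with 95% counting intervals; mt-Atp8 is in red. It sits at 2.06 beside mt-Atp6 at 0.705, the lowest of the 13.

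Gm42031 was the non-coding RNA with the most UMIs, 3763 in WT and 10274 in Vsig4 KO, or 143 and 439.8 CPM, a ratio of 3.07 (2.96 to 3.19). It was abundant in B cells and in myeloid and dendritic cells, and low in T cells. B cells had 262 and 714 CPM (2.73, 2.56 to 2.91) and pDC 247 and 931 CPM (3.77, 3.32 to 4.29). Classical monocytes had 143 and 558 CPM (3.89, 3.30 to 4.597), cDC1 152 and 628 CPM (4.13, 3.41 to 5.02) and macrophages 123 and 429 CPM (3.47, 2.86 to 4.23). CD8 T cells had 30.1 and 117 CPM (3.89, 2.97 to 5.16), and Zbtb16+ T cells 20.9 and 83.4 CPM (3.99, 2.25 to 7.59). NK cells had the smallest ratio, from 106 to 235 CPM (2.21, 1.79 to 2.74).

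The levels of Gm42031 spanned 12.5-fold over 11 types in WT and its ratios 2.01-fold, with a Pearson r of 0.98 and a slope of 0.93 between the log2 levels of the libraries. Within that near-parallel shift, the intervals of B cells and NK cells ended below the ratio of the other types, 3.53 and 3.13. Those of classical monocytes, cDC1 and pDC began above theirs, between 2.99 and 3.02. Of its 60-base stretches 51.0% occur in other genes, 40.3% in Gm43305, so its level is uncertain.

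D130009I18Rik had 2221 and 4369 UMIs, 84.5 CPM in WT and 187 CPM in Vsig4 KO, a ratio of 2.21 (2.10 to 2.33). Its WT levels spanned 1.73-fold over the 11 types, from 54.5 CPM in cDC2 to 94.6 CPM in NK cells, and the Vsig4 KO levels ran from 114 CPM in cDC2 to 243 CPM in Foxp3+ T cells. The ratios ran from 1.65 (1.30 to 2.09) in NK cells to 3.77 (2.20 to 6.90) in Foxp3+ T cells. NK cells were the 1 type of 11 whose interval missed the ratio of the other types, 2.45. One Vsig4 KO cell held 150 of its UMIs. No 60-base stretch of it occurs in another gene.

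Gm4316 had the widest spread of the 9, with ratios that spanned 8.51-fold over 8 types. It had 151 UMIs in WT and 829 in Vsig4 KO, 5.75 and 35.5 CPM, a ratio of 6.18 (5.19 to 7.40). In B cells it was 3.92 and 48.2 CPM (12.3, 7.63 to 21.04), and in pDC 7.43 and 69.7 CPM (9.38, 4.80 to 20.4). The T cells with the highest WT levels differed less: conventional CD4 T cells had 13.8 and 35.6 CPM (2.59, 1.39 to 5.10) and CD8 T cells 13.2 and 19.1 CPM (1.44, 0.890 to 2.38). Those WT levels rest on 8 and 13 positive cells, and the 10 WT cells with the most UMIs held 25.2% of all WT Gm4316 UMIs. The share of CD8 T cells with at least 1 UMI was 2.87% in WT and 7.05% in Vsig4 KO, and that of conventional CD4 T cells 3.2% and 7.34%. The B cell interval began above the 4.05 of the other types, and the T cell intervals ended below 6.46 and 7.97. In Foxp3+ T cells it had 0 and 9 UMIs, in Zbtb16+ T cells 1 and 11, and in macrophages 3 and 11, too few to be measured.

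The span of Gm4316 lies within that of Galnt2l on the same strand, which had 6327 UMIs in WT and 6172 in Vsig4 KO. Of its 60-base stretches 25.9% occur in other genes, 16.6% in Miga1. Ube2v1, Mid1, Gm42031 and Gm4316 were the 4 genes of the 9 with at least 25% of such stretches shared, beside 9.18% of 12992 genes.

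A further 7 types held fewer than 50 cells in a library and were left out of the counts. Plasma cells, 27 and 38 of them, had the highest Camk2b level of any type, 571 CPM in WT and 1567 CPM in Vsig4 KO (2.75, 2.38 to 3.19). They made up 7.77% and 11.3% of all Camk2b UMIs. In mature dendritic cells, 43 and 40 of them, Gm42031 was 137 and 982 CPM (7.18, 4.86 to 10.97). In patrolling monocytes, 130 and 25 of them, it was 172 and 843 CPM (4.89, 3.81 to 6.29), and Slc15a2 was 36.4 and 153 CPM (4.21, 2.33 to 7.59). Plasma cells differed less in Slc15a2, with 22.7 and 27.6 CPM (1.22, 0.519 to 3.07).

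By position, the 9 genes lie on chromosomes 2, 8, 11, 14, 16, X and M. Cdk5rap1 (chr2:154335380-154373010) and Ube2v1 (chr2:167607638-167632095) share chromosome 2, and Gm42031 (chr8:85125872-85132289) and Gm4316 (chr8:123165255-123178765) chromosome 8. The others are Camk2b (chr11:5969644-6066362), D130009I18Rik (chr14:104612791-104966783), Slc15a2 (chr16:36750177-36784962) and Mid1 (chrX:169685199-170005736), all on GRCm38. Mid1 shares the X chromosome with Vsig4 and starts 73.4 Mb from it. Within 1 Mb of the 8 nuclear genes, 18 of 188 genes with at least 50 UMIs were past 1.5-fold in either direction, near the 5% higher and 5.38% lower among all genes, and the median log2 difference around each gene lay between -0.02 and 0.08. Around Camk2b 1 of 29 neighbours was past that fold, Pgam2 (2.20, 1.68 to 2.89).

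Around Slc15a2, 4 of 22 neighbours were past 1.5-fold. Eaf2, 90.04 kb away and a partner of transcription elongation factors, was higher at 538 and 748 UMIs (1.56, 1.398 to 1.75). The stefin and cystatin-related genes further off were lower: Stfa1 had 107 and 3 UMIs (0.0315, 0.00640 to 0.0947), Stfa2l1 118 and 58 (0.553, 0.397 to 0.764) and Cstdc4 153 and 85 (0.625, 0.474 to 0.820). Around Gm4316, 4 of 37 were. The lower ones were Cbfa2t3, a transcriptional corepressor, with 2187 and 1103 UMIs (0.567, 0.527 to 0.610) and Rhou (0.656, 0.473 to 0.904), and the higher ones Rab4a (1.76, 1.30 to 2.39) and Gas8 (1.56, 1.04 to 2.35). Around Ube2v1, 2 of 26 were past it, both lower: A530013C23Rik (0.663, 0.444 to 0.979) and 1200007C13Rik (0.369, 0.207 to 0.628). Around Gm42031, 2 of 44 were, Neto2 (1.72, 1.30 to 2.30) and Gpt2 (1.76, 1.04 to 3.03), and around D130009I18Rik 1 of 6, Slain1os (1.5002, 0.934 to 2.43).

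Around Mid1, 3 of 6 neighbours were past 1.5-fold. Inside its span lie 2 antisense genes, Gm15726 (chrX:169979047-169985232) and Gm15247 (chrX:169985801-169986939), which were lower as Mid1 was, with 62 and 5 UMIs (0.0907, 0.0285 to 0.223) and 49 and 6 UMIs (0.138, 0.0482 to 0.322). Both lie on the strand opposite to Mid1. Whether the authors' counting used strand is not given in the sources used here, so how reads were divided between Mid1 and these genes is uncertain. Erdr1, 324 kb beyond the start of Mid1, was higher, with 146 and 280 UMIs (2.16, 1.76 to 2.65).

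**Figure D4:**
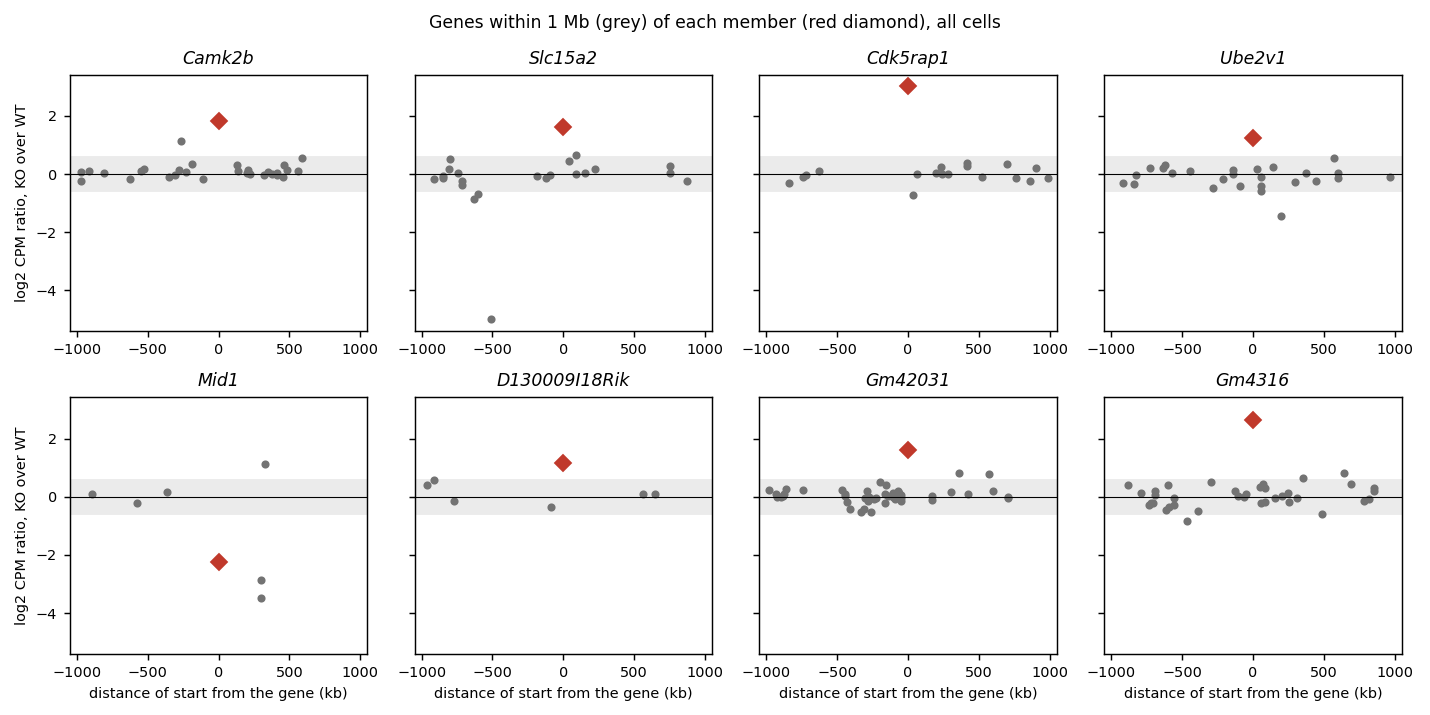
Log2 ratio over all cells of each gene with at least 50 UMIs whose start lies within 1 Mb (grey) of a nuclear gene of the set (red diamond), against its distance in kb; the grey band marks 1.5-fold. Most neighbours lie within the band, and beside Mid1 the lower points are its antisense genes Gm15726 and Gm15247.

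The pattern was searched for in all genes. Of 8246 genes measured in at least 5 types, 14 were higher past 1.5-fold in every type measured (0.17%) and 3 were lower (0.0364%). Of the 14, 6 belong to the set described here, and of the 3, 1 does. The set was chosen for such a pattern in these same libraries, so this overlap was built in and nothing is read from it. Dynlt1b, a dynein light chain, ran from 1.81 to 3.33 over 11 types, and 83.0% of its 60-base stretches occur in other genes, 74.6% in Dynlt1a. Fam177a ran from 2.70 to 4.97 over 6 types and shared 98.5% with another gene, 1700047I17Rik2. Ppfia4 had 48 and 609 UMIs, a ratio of 14.3, and ran from 13.2 to 58.1 over 5 types.

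On the lower side, Gm47283 on the Y chromosome had 2975 and 213 UMIs (0.0806, 0.0698 to 0.0926) and ran from 0.0501 to 0.126 over 11 types. Gm9844 had 303 and 65 UMIs, a ratio of 0.241, and shared 55.2% of its stretches with Tmsb10. Among Y-linked genes, Ddx3y (1733 and 1587 UMIs), Kdm5d (440 and 444) and Uty (1444 and 1328) were counted in both libraries at ratios of 1.03, 1.14 and 1.03. Eif2s3y had 1301 and 699 UMIs, a ratio of 0.604 (0.551 to 0.663), and Xist had 1 UMI in each library. Other genes higher in every measured type were Gm46620, Gm49980, Slc41a3 and Igkv1-117, an immunoglobulin segment. The 17 genes lie on 14 chromosomes.

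**Figure D5:**
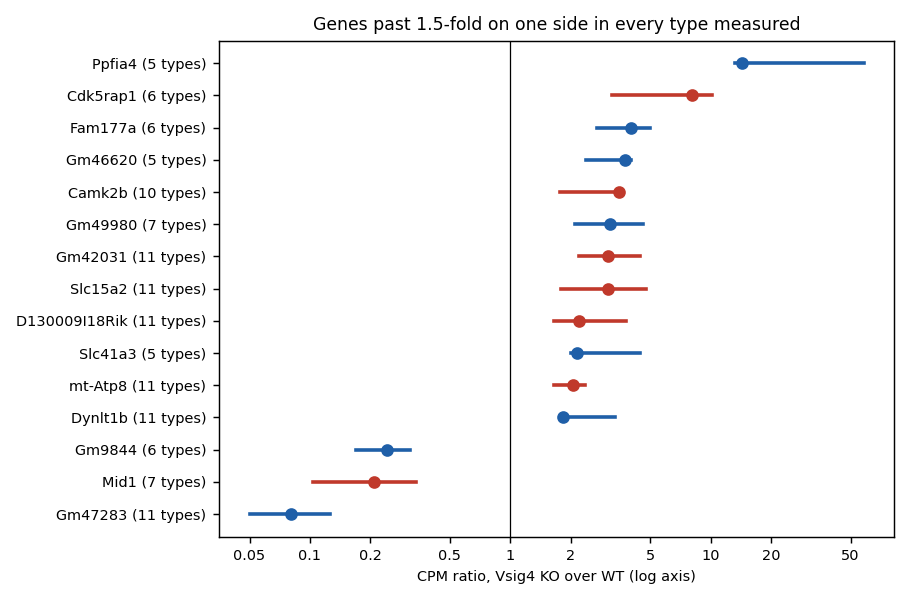
Ratio of the Vsig4 KO to the WT level over all cells (points, log axis) and its range over the measured cell types (bars) for genes named here that were past 1.5-fold on one side in every measured type; genes of the set are in red, and Igkv1-117, absent from a WT type, is left out. Bars of the higher genes start at 1.65 or above, and Gm47283 and Mid1 lie lowest.

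Over the 22 sums of type and library, the levels of each gene were correlated with those of genes with at least 50 UMIs. The genes of the set were chosen for a difference between the libraries. A high r with any other gene shifted alike in every type was therefore built in, and nothing is read from it. The Pearson r of log2(CPM + 10), in which the difference between libraries has a part, was 0.88 between mt-Atp8 and D130009I18Rik, 0.85 between Slc15a2 and mt-Atp8, and 0.84 between Cdk5rap1 and Fam177a, each among the 2 highest for the gene named first. D130009I18Rik was most like Fam177a (0.89), Ube2v1 most like D130009I18Rik (0.81), Gm4316 most like Gm46620 (0.83) and Mid1 most like Gm47283 (0.82). Camk2b was most like Socs4 (0.92) and Neil1 (0.896), whose ratios were 1.22 and 1.499, and Gm42031 most like Scpep1os (0.86) and Cep85 (0.85), whose ratios were 1.199 and 1.804. These values describe 22 sums from 2 libraries and carry no test.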

How the data were processed

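The 10x count matrices hold whole-number UMI counts per gene and cell as the authors deposited them, with cells already called. The submitters' processing notes name Cell Ranger 7.1.0 and mm10. The annotation, and whether introns or strand were used, are not given in the sources used here. The files were read with Python 3.11.15, scipy 1.17.1 and scanpy 1.11.5.

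Barcodes with at least 200 genes, 500 UMIs and at most 10% mitochondrial UMIs were kept: 6872 of 6929 in WT and 5746 of 5799 in Vsig4 KO. Scrublet's own threshold called 0 and 1 doublets, so the highest scores were removed at 0.8% per 1000 barcodes (381 and 267 cells). A cell took a type when it passed that gate of marker UMIs and no other among 18. The gamma-delta gate used the symbols Trgc1, Trgc2 and Trgc4, as the files have them, in place of the Tcrg-C names first written. UMIs were summed per type and library. CPM has an exact Poisson interval and the ratio an exact conditional binomial one, both at 95%. With 1 library per genotype there was no test, and cells were not taken as replicates. List medians use log2 with 10 CPM added. The calculations were tested on simulated data.

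Positions come from GENCODE on GRCm38 by gene ID (31184 of 31253 genes), sequences from GENCODE transcripts and RefSeq. Stretches of 60 bases were compared on both strands.

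Named are all 9 genes; list genes past 1.5-fold and close paralogs; up to 4 neighbours per gene past 1.5-fold, else the nearest; the 10 genes in each direction with the narrowest range of log2 ratio among those past 1.5-fold in every type; and the 2 genes most correlated with each. Some genes that meet the rule are not reported here. Genes named beyond it were chosen after their values were seen. The 9 genes and the lists were chosen with earlier results of these data known. Alternatives were tried for scaling, doublets, cell filters, depth, gates, minimums, the fold, the window and the pseudocount.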

Additional observations from a re-analysis of the deposited data

How the results depend on the processing

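Of 211 alternative values, 193 stayed within bounds, 18 moved outside them and 0 ratios changed direction. The bounds were the main interval for ratios and 1.5 times the main count for counts. For list medians they were 1 standard deviation of the log2 differences of the list. With each cell thinned to 1000 UMIs, which leaves out 388 WT and 312 Vsig4 KO cells, the ratio over all cells was 3.33 for Camk2b, 6.26 for Cdk5rap1, 2.88 for Gm42031, 7.95 for Gm4316 and 1.98 for mt-Atp8. The ratio at equal type composition was then 2.65 for Gm42031, 7.91 for Gm4316 and 1.89 for mt-Atp8. Thinning left 49 gene and type pairs with enough UMIs: 49 lay on the gene's own side of 1, 42 past 1.5-fold, and 38 held the ratio of the other types, fewer because fewer UMIs remained. Stricter gates gave Slc15a2 3.17 at equal composition. Without the 10 cells richest in Gm4316 in each library, an alternative added after seeing the data, its ratio was 7.44. A window of 2 Mb gave 30 of 319 neighbours past 1.5-fold, beside 5% higher and 5.38% lower among all genes with at least 50 UMIs. With no minimum beyond 1 UMI per library, 46 of 240 neighbours within 1 Mb were past it. No share over all genes was taken at that minimum, so nothing is read from counts made with it. The cause of the moved ratios was not tested. Lists moved in 3 values: 2 of 7 genes of the Mid1 list past 1.5-fold without the minimum, and medians of -0.67 (hepatocyte) and -4.75 (erythroid) with 1 CPM added. Median-of-ratios scaling moved the log2 ratios over all cells by 0.02. Depth limits Cdk5rap1, Mid1 and Gm4316 most, which were not measured in 5, 4 and 3 types. No paired analysis was possible because each genotype has 1 library.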
